A study of Mus musculus with 6 samples.

Results

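The 10 genes described here encode enzymes that build purine and pyrimidine nucleotides de novo. They are Ppat, Gart, Paics and Atic of the purine route to inosine monophosphate (IMP), Impdh1, Impdh2 and Gmps of the branch from IMP to GMP, and Cad, Dhodh and Umps of the pyrimidine route to uridine monophosphate (UMP). They were chosen by symbol, with earlier results of these data known, and 10 of the 18828 genes in the deposited table carried those symbols. RNA sequencing gave their levels in splenic T cells of wild-type FVB mice, an inbred strain. All cells received beads with antibodies to CD3 and CD28, a stand-in for antigen and costimulation, for 48 h. One group of 3 libraries was given 50 µM urolithin A (UA), a gut bacterial product of plant ellagitannins, over those hours, and the other group of 3 got DMSO, its solvent. The age and sex of the mice are not given in the labels, nor do they say whether libraries a to c came from separate animals or cultures. The p-values therefore measure only the spread between these libraries, which may be technical.

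Resting T cells live largely on salvaged bases and nucleosides. After activation a T cell enlarges and copies its genome, and the de novo routes are induced to supply the nucleotides for RNA and DNA. The transcription factor Myc and the growth kinase mTORC1 are known to drive these enzymes, and IMPDH and DHODH are the targets of the immunosuppressants mycophenolate and leflunomide. Urolithin A is known for inducing mitophagy, and DHODH is the only enzyme of the 2 routes that sits in the inner mitochondrial membrane, where it passes electrons to ubiquinone.

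The promoters are shown as background, since Myc and related factors bind the E-box, and were picked for display with the levels of the genes known. Their part in the levels described below was not tested. RefSeq windows of 300 bases, from 250 before to 50 after the gene start in GRCm38.p6, were at hand for 9 of the 10 genes, all but Dhodh. The letters CACGTG, which read the same on both strands, occurred in the windows of 3 of these 9 genes, Paics, Atic and Impdh2, and in those of 11.9% of the 10079 tested genes with a window. They began 203 bases before the start of Paics, 7 before that of Atic and 110 before that of Impdh2. The letters were not looked for outside the windows, so the other genes may carry them near their starts. The Paics window, for example, lies within the mm10 span of Ppat, from 76913249 to 76951578 on chromosome 5. In the 3 windows, written 5′ to 3′ on the gene's strand, capitals mark the CACGTG letters.
Paics (chr5:76951052-76951351, plus strand): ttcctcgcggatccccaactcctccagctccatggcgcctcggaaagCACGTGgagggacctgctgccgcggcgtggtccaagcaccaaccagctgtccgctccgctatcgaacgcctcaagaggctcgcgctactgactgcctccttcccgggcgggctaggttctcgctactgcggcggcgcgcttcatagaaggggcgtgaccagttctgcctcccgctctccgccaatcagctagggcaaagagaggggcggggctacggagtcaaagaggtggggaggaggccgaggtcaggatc
Atic (chr1:71556906-71557205, plus strand): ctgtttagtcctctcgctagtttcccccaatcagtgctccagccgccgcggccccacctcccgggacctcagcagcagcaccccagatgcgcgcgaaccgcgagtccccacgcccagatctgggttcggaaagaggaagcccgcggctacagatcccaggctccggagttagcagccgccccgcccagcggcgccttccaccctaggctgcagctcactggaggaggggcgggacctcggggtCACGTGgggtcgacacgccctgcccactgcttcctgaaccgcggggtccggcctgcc
Impdh2 (chr9:108560186-108560485, plus strand): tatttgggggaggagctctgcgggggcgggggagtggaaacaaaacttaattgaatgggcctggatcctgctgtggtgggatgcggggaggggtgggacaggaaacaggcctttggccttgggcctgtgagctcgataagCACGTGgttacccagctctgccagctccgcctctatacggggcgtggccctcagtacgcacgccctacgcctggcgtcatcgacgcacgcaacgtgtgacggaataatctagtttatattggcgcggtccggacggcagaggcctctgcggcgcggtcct
Such a match is a description of the sequence and does not show that a factor binds there.

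The total count per library ran from 12738059 to 19081219, and 17948 to 18305 genes had at least 1 count. Rn18s, an 18S ribosomal RNA gene, held 17.6% of the counts in library b with DMSO and 3.97% in library a with UA, against 0.0687% to 0.887% in the other 4. Summed T cell markers (10 of 10 in the table, of which 3 were called higher and 1 lower) lay between 3200 and 3360 CPM with DMSO and between 3340 and 3700 CPM with UA. Summed B cell markers (7 of 7, of which 3 were called higher) lay between 163 and 180 CPM with DMSO and between 207 and 250 with UA. Macrophage and monocyte markers (6 of 7) lay between 6.19 and 7.89 and between 12.7 and 14.7 CPM, NK cell markers (4 of 5) between 38.3 and 41.8 and between 45.5 and 53.6, and erythroid markers (3 of 5) between 1.22 and 1.95 and between 2.38 and 3.54. No marker in the table was at 0 in every library. The T cell sums of the groups overlapped and the other 4 sums were higher in every UA library. Those 4 sums rest on few genes, and not every marker rose. Ighm held most of the B cell sum, at 149 to 166 CPM with DMSO and 189 to 231 with UA. Mpeg1 was at 2.30 to 2.44 CPM with DMSO and at 6.77 to 8.06 with UA. Cd68 was at 3.27 to 4.76 CPM with DMSO and at 5.15 to 5.61 with UA. Adgre1 went the other way, from 0.290 to 0.348 CPM with DMSO and from 0.052 to 0.170 with UA, values near the floor. Of the macrophage and monocyte markers, 2 had enough counts to be tested, and 1 was called higher. Klrd1 and Eomes held most of the NK cell sum. The part of these sums in the results below was not tested. In bulk RNA, fewer cells of a type and less RNA per cell cannot be told apart.

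With UA, transcripts of 8 of the 10 synthesis genes were lower than with DMSO, by 16.5% to 37.2%. Dhodh fell most, to 28.3 ± 4.15 CPM from 44.6 ± 2.96 (SD, n = 3), where CPM are counts per 1e6 of the scaled library size. Impdh1, Atic, Gart, Gmps, Ppat, Umps and Impdh2 followed. Paics had a log2 fold change of -0.17 ± 0.07 (SE) and Cad one of -0.09 ± 0.14, and neither passed. The 8 genes passed limma voom at an adjusted p under 0.05 over 14444 genes, of which 16.0% were lower, 17.7% were higher and 33.7% changed in either direction. None of the 10 was called higher, also at an unadjusted p under 0.05, where 9 were lower and 0 higher, against 20.9% and 22.4% of all genes tested. The median log2 fold change was -0.31 over the 10 genes, chosen with earlier results of these data known, and 0.01 over all genes tested. The values of the groups did not overlap for 9 of the 10 genes, all but Cad. The same held for 46.8% of all genes tested, for 22.7% with the UA group lower and for 24.1% with it higher.

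The count moved with the libraries used and with the scaling. With DMSO library b and UA library a, both rich in ribosomal RNA, left out, 3 of the 10 genes were called lower, namely Dhodh, Impdh1 and Atic, where 8.43% of all genes were. That fit has 2 libraries a group, and no other pair was left out. The median of the 10 was then -0.32, and Gart, for example, had an adjusted p of 0.0920 at a log2 fold change of -0.35. Scaled to the total count alone, 2 of the 10, Dhodh and Impdh1, were called lower, where 6.47% of all genes were, and 70.6% of the 3172 genes called were higher, against 52.6% of 4871 with the main scaling. That scaling counts Rn18s in the library size. With ribosomal RNA genes removed first, an alternative chosen after seeing the data, total count scaling called 8 of the 10 lower, where 14.7% of all genes were.

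**Figure D1:**
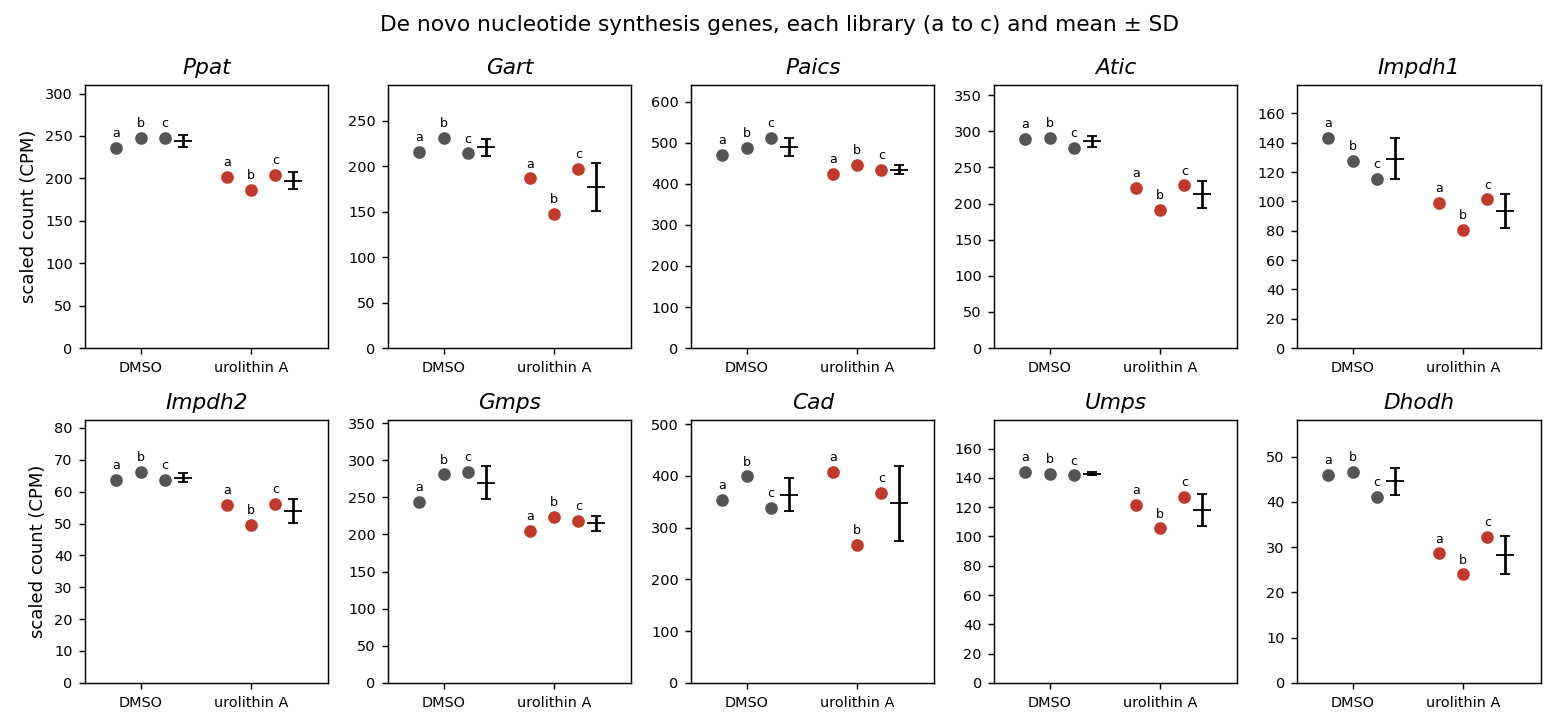
Scaled counts (CPM, linear axes from 0) of the 10 genes in each library; dots are libraries a to c, grey for DMSO and red for UA, and black bars are mean ± SD. The groups are apart in every panel but that of Cad, where the UA values of 267 to 407 CPM span those with DMSO.

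The purine route begins with Ppat, the amidotransferase that commits phosphoribosyl pyrophosphate (PRPP) to purine synthesis. Ppat (ENSMUSG00000029246) was at 236, 248 and 248 CPM with DMSO and at 202, 186 and 204 CPM with UA, each in the order of libraries a to c, as are all triplets that follow. Positions of the 10 genes are those of the table. The submitters' notes name the build mm10, but 0 of the 10 genes share start and end with the mm10 annotation (GENCODE M21). The build of these positions is therefore not known. Every UA library was below every DMSO library, and the log2 fold change of Ppat was -0.31 ± 0.07 (limma adjusted p = 0.00336). Gart (ENSMUSG00000022962, chromosome 16 from 91418074 to 91443840, minus strand), a protein that carries several early steps of the route including a formyl transfer from folate, was at 216, 231 and 214 CPM with DMSO and at 187, 147 and 197 CPM with UA. Library b with UA was the low one, and the groups did not overlap. The log2 fold change of Gart was -0.33 ± 0.10 (limma adjusted p = 0.0178), and its call was lost without DMSO library b (adjusted p = 0.0690). Without UA library b Gart was at -0.20 on the log2 scale (adjusted p = 0.0197).

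Paics (ENSMUSG00000029247) joins a carboxylase and a synthetase of the middle of the route. Its levels were 470.2, 487.5 and 512.5 CPM with DMSO and 424.7, 445.5 and 433.1 CPM with UA. The groups lay apart by a small margin, between 445.5 and 470.2 CPM. The log2 fold change of Paics was -0.17 with a 95% interval from -0.31 to -0.03 (limma adjusted p = 0.0552). It passed when UA library b was left out (adjusted p = 0.0166), and in 5 of 18 alternatives in all, with values from -0.21 to -0.08. Atic (ENSMUSG00000026192, chromosome 1 from 71596309 to 71618790, plus strand), which performs the last formyl transfer and the ring closure to IMP, was at 290, 291 and 277 CPM with DMSO and at 221, 192 and 225 CPM with UA. All 3 UA values were lower, and Atic fell by 25.8% (95% interval 17.1% to 33.7%; log2 fold change -0.43 ± 0.08, limma adjusted p = 5.20e-04).

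Ppat and Paics are neighbours that start on opposite strands. Ppat lay on chromosome 5 from 77061096 to 77099425 on the minus strand and Paics from 77099154 to 77115356 on the plus strand. Their spans shared 272 bases at the 5′ ends, and reads from that stretch cannot be assigned if the counting ignored strand, which is not stated. The same limit holds for opposite-strand genes that overlap Ppat (2310040G07Rik, 19387 bases), Gart (Gm15964, 2676 bases), Umps (Gm15829, 800 bases) and Impdh2 (Ndufaf3, 48 bases). The log2 ratio of Ppat to Paics CPM within a library, not corrected for length, was -1.01 ± 0.04 with DMSO and -1.14 ± 0.10 with UA (SD, n = 3). The difference was -0.13 (exact two-sided permutation p = 0.1, the smallest that 3 against 3 libraries allow), and the 3 values with UA, from -1.26 to -1.07, were all below those with DMSO, from -1.05 to -0.98. Without UA library b the difference was -0.07.

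From IMP, the IMP dehydrogenases make XMP in the step that limits GMP synthesis, and Gmps turns XMP into GMP. Impdh1 (ENSMUSG00000003500, chromosome 6 from 29200433 to 29216363, minus strand) was at 143.5, 127.8 and 115.6 CPM with DMSO and at 99.0, 80.4 and 101 CPM with UA. Despite the spread among the DMSO libraries the groups did not overlap, and Impdh1 fell by 27.6% (95% interval 15.9% to 37.7%; limma adjusted p = 0.00277). It was called in all 18 alternatives, with log2 fold changes from -0.55 to -0.36. Impdh2 (ENSMUSG00000062867, chromosome 9 from 108437485 to 108442783, plus strand), known as the isozyme that proliferating lymphocytes induce, was at 63.6, 66.1 and 63.6 CPM with DMSO and at 55.8, 49.6 and 56.2 CPM with UA. All UA values were lower, at -0.26 ± 0.08 on the log2 scale (limma adjusted p = 0.0200). The call of Impdh2 was lost without DMSO library a (adjusted p = 0.0502) and without DMSO library b (adjusted p = 0.0713).

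The counts of Impdh2 are uncertain, because the table also lists a processed pseudogene, Impdh2-ps, with 65 to 156 counts per library beside 746 to 1199 for Impdh2, and reads shared by near-identical copies may have been split or dropped. Impdh2-ps changed by -0.52 ± 0.17 on the log2 scale (limma adjusted p = 0.0264), a call lost on leaving out DMSO library a (adjusted p = 0.0509), DMSO library b (0.10) or UA library c (0.0941). The log2 ratio of Impdh1 to Impdh2 CPM, also not corrected for length, was 0.86 to 1.17 with DMSO and 0.70 to 0.85 with UA. The groups did not overlap, and the difference of -0.20 had the smallest exact two-sided permutation p that the design allows, 0.1. Without DMSO library a it was -0.115. Gmps (ENSMUSG00000027823, chromosome 3 from 63883527 to 63930000, plus strand) was at 244, 281 and 284 CPM with DMSO and at 204, 224 and 218 CPM with UA. Here UA library b was the highest of its group, and the log2 fold change of Gmps was -0.32 ± 0.08 (limma adjusted p = 0.00456).

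The pyrimidine route opens with Cad (ENSMUSG00000013629, chromosome 5 from 31212124 to 31235823, plus strand), a large protein that carries carbamoyl phosphate synthetase, aspartate transcarbamylase and dihydroorotase. Cad was at 354, 399 and 338 CPM with DMSO and at 407, 267 and 367 CPM with UA. The UA libraries were both above and below the DMSO libraries, library a highest and library b lowest of all 6. The log2 fold change of Cad was -0.09 with a 95% interval from -0.42 to 0.24 (limma adjusted p = 0.686), whose lower end is a fall of 25.0%. Without UA library b the log2 fold change was 0.10 (adjusted p = 0.310), and Cad did not pass in any of 18 alternatives.

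Dhodh (ENSMUSG00000031730, chromosome 8 from 110317975 to 110335305, minus strand), the mitochondrial oxidase of dihydroorotate, was at 46.0, 46.5 and 41.2 CPM with DMSO and at 28.6, 24.0 and 32.3 CPM with UA. The groups were well apart, and Dhodh fell by 37.2% (95% interval 26.5% to 46.3%; log2 fold change -0.67 ± 0.11, limma adjusted p = 2.26e-04). Of all genes tested, 6.15% had a log2 fold change as low or lower. For the other synthesis genes called lower, that share ran from 11.5% for Impdh1 to 22.8% for Impdh2. The call of Dhodh was kept in all 18 alternatives, with log2 fold changes from -0.76 to -0.555, and these values rest on 423 to 793 counts per library. Umps (ENSMUSG00000022814, chromosome 16 from 33775152 to 33787408, minus strand), which completes UMP from orotate, was at 143.8, 142.5 and 141.7 CPM with DMSO and at 121.7, 105.5 and 127 CPM with UA. The DMSO values were close together and all above those with UA, and the log2 fold change of Umps was -0.28 ± 0.08 (limma adjusted p = 0.0134).

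**Figure D2:**
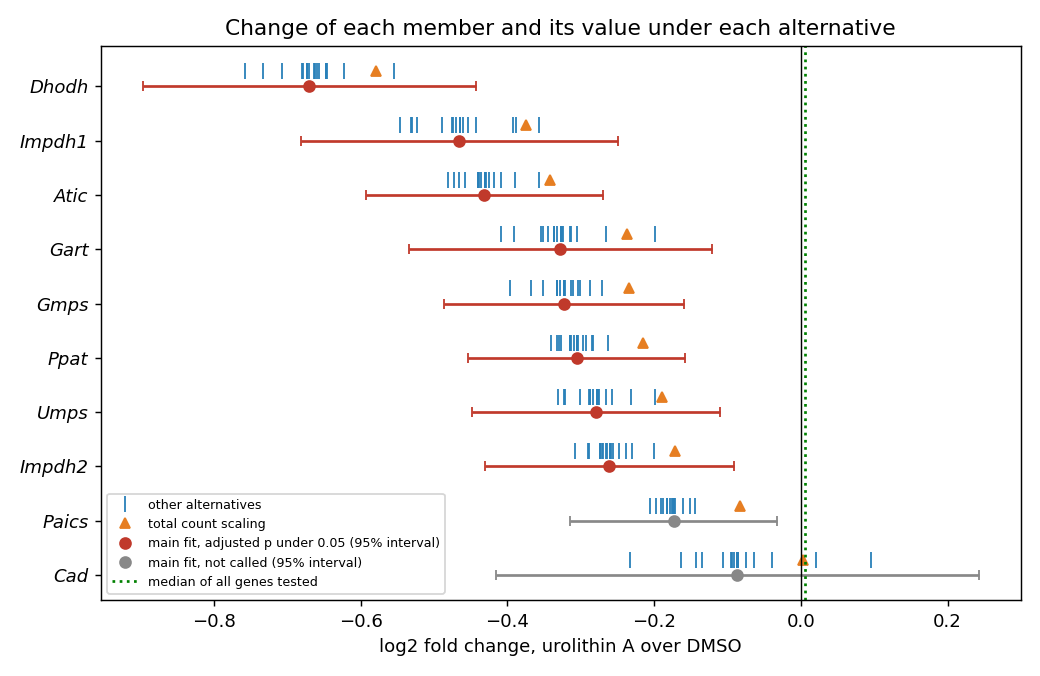
Log2 fold change (UA over DMSO) of each gene; dots with bars are the main limma voom values with 95% intervals, red where the adjusted p was under 0.05 and grey where not, and the marks above them are the same gene under the 18 alternatives. Dhodh lies lowest at -0.67, the total count scaling (triangles) shifts every gene upward, and the interval of Cad, from -0.42 to 0.24, spans 0.

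Within the UA group, library b held the lowest value of 8 of the 10 genes, all but Paics and Gmps, for which it was the highest. The share of all genes tested with their lowest UA value in library b was not counted. The pattern is therefore not shown to be particular to these genes, nor to those named below as lowest in library b. Relative to the DMSO mean UA library b was at 53.8% for Dhodh, 62.4% for Impdh1 and 66.8% for Gart, while UA library c was at 72.4%, 78.6% and 89.5%. Together the 10 genes took 2207, 2321 and 2235 CPM with DMSO and 1951, 1721 and 1961 CPM with UA. Without UA library b the median log2 fold change of the 10 genes was -0.23 and 9 were called lower, Paics among them, where 16.9% of all genes were.

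**Figure D3:**
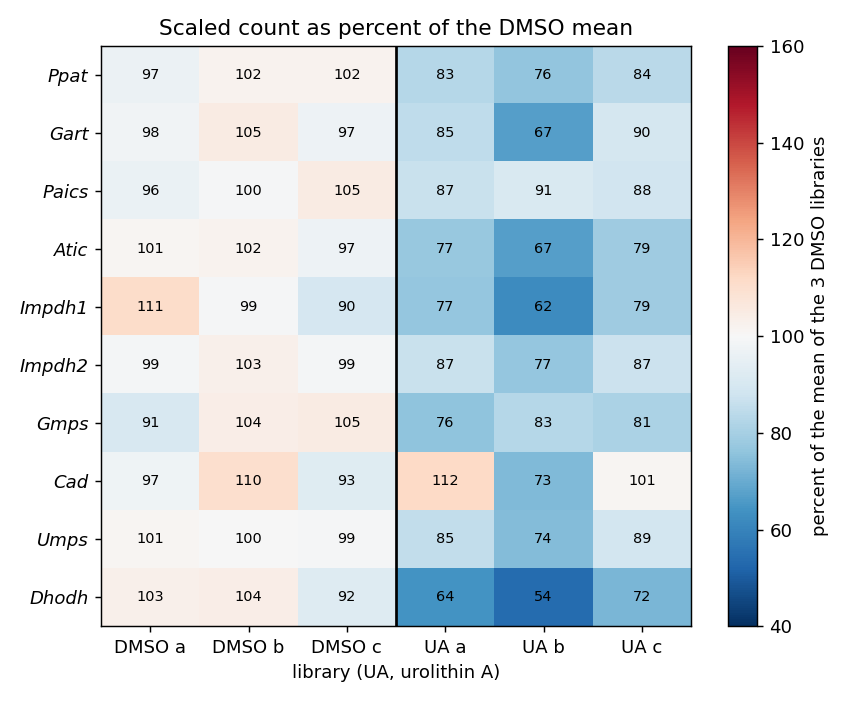
Scaled count of each gene (rows) in each library (columns) as a percentage of the mean of the 3 DMSO libraries. UA library b ranges from 53.8% for Dhodh to 90.9% for Paics, and Cad in UA library a stands at 112%.

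Levels of different genes were compared per kilobase of the principal GENCODE M21 transcript. On this scale Paics was the most abundant with DMSO at 197 ± 8.57 CPM per kb, followed by Atic at 100.5 ± 2.79. Gart and Ppat, at 62.7 ± 2.71 and 61.3 ± 1.73, did not differ beyond their spread, nor did Cad and Impdh1, at 51.0 ± 4.45 and 49.6 ± 5.37. Umps stood at 41.0 ± 0.293, Impdh2 and Gmps were alike within their spread at 34.7 ± 0.774 and 33.3 ± 2.71, and Dhodh was the least abundant at 21.9 ± 1.45. With UA the level of Paics was 175 ± 4.23 and that of Dhodh 13.9 ± 2.03 CPM per kb. The order depends on the length used. Over all annotated exons of a gene Atic, for example, was at 35.8 CPM per kb with DMSO.

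The remaining enzymes of the purine route were 4 listed genes, of which 2 fell. Of all genes tested, 16.0% were lower and 17.7% higher, shares that belong beside this and each list count that follows. Pfas, which follows the first formyl transfer, was at 272, 294 and 254 CPM with DMSO and at 203, 165 and 208 CPM with UA (log2 fold change -0.51 ± 0.09, limma adjusted p = 5.84e-04). Adsl, a lyase of the route to IMP and of the AMP branch, fell from 185 ± 9.59 to 145 ± 20.99 CPM. Both showed their lowest value in UA library b, without which the log2 fold change of Adsl was -0.24 in place of -0.36. Adss, whose product commits IMP to AMP, stood at 0.08 ± 0.07 on the log2 scale (limma adjusted p = 0.387). Adss was named after its values were seen, like Ctps, Ctps2, Rrm1, Rrm2, Tyms, Mthfd2, Shmt2, Max, Mxd3, Mnt, Rptor and Rps6kb1 in what follows. Among 5 genes for PRPP synthetases and their associated proteins, 1 rose, Prps2, which makes the PRPP that both routes consume, from 199 ± 14.3 to 297 ± 16.8 CPM (0.57 ± 0.08 on the log2 scale, limma adjusted p = 4.45e-05).

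Downstream of UMP and in the supply of deoxynucleotides, 3 of 14 genes fell and 11 did not pass, where 16.0% of all genes tested were lower. Dctd, a deaminase of dCMP, fell from 14.7 ± 1.14 to 7.65 ± 0.784 CPM (log2 fold change -0.94 ± 0.13), and Dut, which removes dUTP, from 348 ± 17.7 to 258 ± 6.81 CPM. The third was Ctps, one of the CTP synthetases and known in human T cells as needed for their expansion. It was at 115, 125 and 122 CPM with DMSO and at 84.4, 63.9 and 87.4 CPM with UA, lowest in library b, at -0.64 ± 0.10 on the log2 scale (limma adjusted p = 3.69e-04). Its paralog Ctps2 did not pass, at 0.18 ± 0.08 on the log2 scale (adjusted p = 0.0866). The ribonucleotide reductase subunits Rrm1 and Rrm2 had log2 fold changes of -0.08 ± 0.07 and -0.11 ± 0.07 and thymidylate synthase Tyms one of 0.09 ± 0.07, with limma adjusted p of 0.401, 0.259 and 0.360.

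Salvage genes moved in both directions, as did all genes tested, of which 16.0% were lower and 17.7% higher. Of 12 tested genes of purine salvage and interconversion, 3 fell and 2 rose, and their median log2 fold change was -0.0033. The guanylate kinase gene Guk1 fell from 38.6 ± 2.91 to 27.7 ± 2.23 CPM. Adk, which salvages adenosine, rose from 124 ± 7.09 to 161 ± 6.18 CPM (0.37 ± 0.07 on the log2 scale, limma adjusted p = 0.00115). Of 7 tested pyrimidine salvage genes, 2 fell, Tk1, the S phase thymidine kinase, by 0.36 ± 0.09 and Uck2, a uridine and cytidine kinase, by 0.22 ± 0.07 on the log2 scale. The call of Uck2 was lost without DMSO library a (adjusted p = 0.0625) and without DMSO library b (adjusted p = 0.0758). Among 4 tested nucleoside transporters, 1 rose, Slc28a2, which imports purine nucleosides with sodium, from 38.5 ± 1.79 to 58.4 ± 1.09 CPM.

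Of 9 tested genes that break nucleotides and bases down, 3 rose and 2 fell, where 17.7% of all genes tested were higher and 16.0% lower. Xdh, the xanthine dehydrogenase of purine catabolism, rose from 110 ± 3.27 to 165 ± 5.67 CPM (0.60 ± 0.07 on the log2 scale, limma adjusted p = 1.41e-05). Samhd1, which hydrolyses deoxynucleoside triphosphates, rose from 732 ± 29.0 to 992 ± 80.6 CPM. Entpd1, the ectoenzyme CD39, had a log2 fold change of -0.27 ± 0.08, a call lost on leaving out DMSO library a (adjusted p = 0.0523), DMSO library c (0.0501) or UA library a (0.0555).

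Genes that feed carbon units into purines and thymidylate were lower in 8 of 12 cases and higher in 2 (median log2 fold change -0.56). Shmt1, the cytosolic serine hydroxymethyltransferase, fell from 133 ± 3.83 to 67.3 ± 4.87 CPM, and the mitochondrial genes Shmt2 and Mthfd2 fell by 0.84 ± 0.15 and 0.53 ± 0.08 on the log2 scale. Aldh1l2 and Aldh1l1, the mitochondrial and cytosolic formyltetrahydrofolate dehydrogenases, moved in opposite directions, by -2.45 ± 0.22 and 0.80 ± 0.14 on the log2 scale. Dhodh's electron acceptor is made by ubiquinone synthesis, where 5 of 10 genes fell and 1 rose (median -0.26). Coq6 fell from 31.3 ± 2.32 to 21.6 ± 0.961 CPM and Coq5 from 55.2 ± 1.46 to 40.9 ± 4.98 CPM, both enzymes that modify the ring, while Coq8a, a kinase-like regulator of the pathway, rose from 6.96 ± 0.515 to 11.8 ± 1.21 CPM.

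Known regulators of nucleotide synthesis were 10 listed genes, of which 3 fell and 4 rose (median -0.04). Myc was at 217, 217 and 199 CPM with DMSO and at 151.5, 110.1 and 149.7 CPM with UA, again lowest in library b, at -0.64 ± 0.11 on the log2 scale (limma adjusted p = 6.35e-04). Mxd1 and Mxd4, partners of Max that oppose Myc at E-boxes, rose from 66.3 ± 1.76 to 170 ± 5.58 CPM and from 39.8 ± 3.40 to 87.8 ± 6.89 CPM. Max itself, which is also the partner of Myc, rose by 0.27 ± 0.07 on the log2 scale (limma adjusted p = 0.00989). The listed Mxd3 and Mnt did not pass, at -0.25 ± 0.10 and -0.06 ± 0.12 on the log2 scale (limma adjusted p = 0.075 and 0.718). Rptor rose by 0.26 ± 0.09 and Rps6kb1 changed by -0.26 ± 0.07 (limma adjusted p = 0.0312 and 0.0133). Max, Mxd3, Mnt, Rptor and Rps6kb1 were not followed through the alternatives. Atf4, the amino acid response factor, fell from 538 ± 16.8 to 291 ± 26.4 CPM. Over all 10 lists, 28 of 87 tested genes fell and 14 rose (median log2 fold change -0.10), against 8 and 0 of the 10 synthesis genes. Of all genes tested, 16.0% were lower and 17.7% higher, and the share that rose in the lists was near the latter. The lists were not tested as sets. Scaled to the total count alone, Adsl, Guk1, Tk1, Uck2, Dut, Entpd1 and Coq5 did not pass, with adjusted p from 0.0566 for Guk1 to 0.552 for Uck2. With DMSO library b and UA library a left out, Adsl (adjusted p = 0.0757), Tk1 (0.0552), Uck2 (0.178), Entpd1 (0.15) and Impdh2-ps (0.0553) did not pass.

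**Figure D4:**
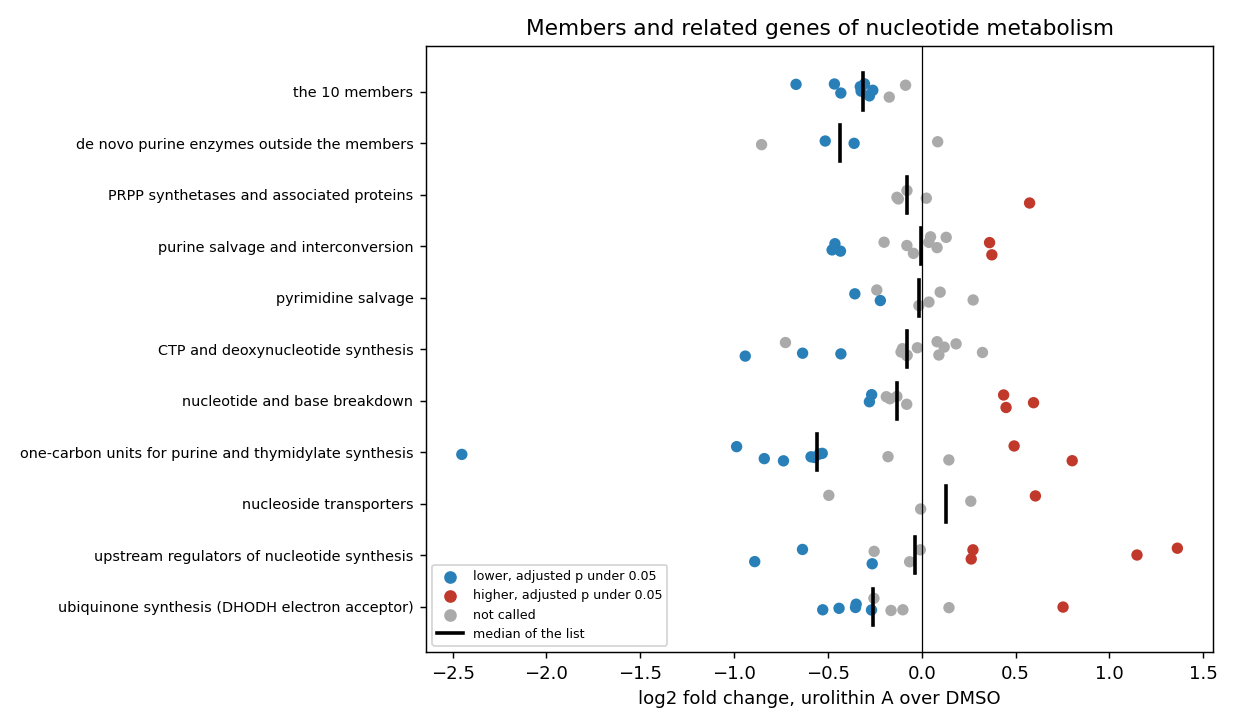
Log2 fold change (UA over DMSO) of the 10 genes and of each related list; each dot is a tested gene, blue where called lower, red where called higher and grey where not called, and black bars are list medians. The bar of the 10 genes stands at -0.31 and that of the carbon unit genes at -0.56, while the salvage bars stand near 0.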

How the data were processed

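Per the labels' protocols, mRNA libraries of a stranded kit were made from 200 ng of column-purified total RNA. Per the submitters' processing notes, bcl2fastq 2.20.0.422, FastQC, STAR 2.5.2a, DESeq2 and the build mm10 were used. The sources used here do not give the counter, strand setting and annotation. Both deposited files hold the same values, and 1 of the 2 was used. Since the authors' deposited table writes numbers with a decimal comma, its unit was recorded as other. All values used were whole and were treated as read counts per gene. Another 3 per-library columns that match no labelled sample were left out.

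Tested genes (14444) had 10 or more counts per median-sized library in 3 or more libraries, and 15 or more in all. Library sizes were scaled by trimmed means of M values (30% of M and 5% of A trimmed), and CPM use the scaled size. Log2 fold changes come from voom and robust eBayes (limma 3.58.1, R 4.3.3), with treatment as the single term. Benjamini-Hochberg adjustment covered every tested gene, and calls needed an adjusted p under 0.05. Errors of fold changes are moderated standard errors. The code was tested on simulated data. From each related list the text names, by smallest p, 2 genes called in the direction most of its calls took and 1 called in the other, and Myc; 1 gene this rule names is not reported here. The members, the related lists and the marker lists were chosen with earlier results of these data known. The 18 alternatives cover scaling, filters, the test, ribosomal RNA genes, the library letter as a block and left-out libraries.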

Additional observations from a re-analysis of the deposited data

How the results depend on the processing

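Of the 18 alternatives, 16 gave a number of lower members within 1.5 times the main number, and none gave a higher member. With total count scaling, 3172 genes were called and 2 members were lower. The log2 fold changes were then -0.22 for Ppat, -0.24 for Gart, -0.34 for Atic, -0.17 for Impdh2, -0.23 for Gmps and -0.19 for Umps, none past the threshold. Cad and Rrm1, which were not called in any setting, changed sign to 0.0027 and 0.012. This scaling moved the median of all genes by 0.09. Without DMSO library b and UA library a, 2666 genes were called and 3 members were lower. Values that no longer passed were -0.33 for Ppat, -0.35 for Gart, -0.29 for Impdh2, -0.27 for Gmps and -0.32 for Umps. In the main fit they were -0.31 for Ppat, -0.33 for Gart, -0.26 for Impdh2, -0.32 for Gmps and -0.28 for Umps. The SE of these genes ran from 0.07 to 0.10 in the main fit and from 0.11 to 0.14 without the 2 libraries. The cause was not tested, and this fit has fewer libraries.

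Paics passed with median-of-ratios scaling at -0.18, upper quartile scaling at -0.18, no filter at -0.18 and sample quality weights at -0.19. Cad was at 0.021 with those weights. Leaving out single libraries gave 6 to 9 lower members, where 11.4% to 16.9% of all genes were lower, with ranges from -0.41 to -0.20 for Gart, -0.21 to -0.14 for Paics, -0.31 to -0.20 for Impdh2 and -0.23 to 0.10 for Cad. With the library letter as a replicate block, 4496 genes and 8 members (all lower) were called, and the exact p within letters was 0.25 for both ratios, the smallest 3 pairs allow. The deviations of same-lettered libraries from their group means had r = 0.07, -0.14 and -0.08, and the labels do not say whether a letter marks a shared animal, culture or day. Of the values of 32 of the other named genes, 554 kept direction and side of the threshold, 21 kept direction but no longer passed, and 1 changed sign. Each group has 3 libraries, which limits what could be detected.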
